A study of Mus musculus with 10 samples.

Results

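NF-kB signalling is represented here by 10 genes, measured in corneal endothelial peelings of Slc4a11-/- and Slc4a11+/+ mice. They are the receptor gene Tnfrsf12a, the NF-kB subunit genes Rela, Relb, Nfkb1 and Nfkb2, the feedback inhibitor genes Nfkbia and Tnfaip3, the adhesion molecule genes Vcam1 and Icam1, and the chemokine gene Ccl2. The 10 were picked by name out of the 55450 genes in the count table, with the comparison of the genotypes in these libraries already known, and all 10 had enough counts to be tested. The values below therefore describe them and do not test whether this set of genes stands apart.

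The knockout group (KO) was Slc4a11-/-, the wild-type group (WT) was Slc4a11+/+, and both were C57BL/6 mice aged 12 weeks, with no treatment given in the labels. Each genotype had 5 libraries of polyadenylated RNA, and each library pooled 6 peelings from 3 animals, so a replicate is a pool. The labels do not name the deleted part of Slc4a11, a promoter or a Cre driver. Counts were scaled as CPM to library sizes adjusted by TMM factors, and log2 fold changes are KO over WT. A gene was called at an edgeR Benjamini-Hochberg adjusted p under 0.05 over 17729 tested genes.

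NF-kB proteins are transcription factors that bind DNA as dimers. In resting cells they are held in the cytoplasm by inhibitors such as IkB-alpha, and receptors of the TNF, interleukin-1 and Toll-like families release them by activating the IkB kinase complex. A slower branch, which the TWEAK receptor can engage, processes the Nfkb2 product so that it pairs with RelB. Adhesion molecules, chemokines and the inhibitors themselves are among the well-known transcriptional targets. VCAM-1 and ICAM-1 are surface ligands that integrins on leukocytes bind. Transcript levels do not show where the NF-kB proteins are in the cell or whether they bind DNA.

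The libraries held 36026193 to 51008996 counts. Slc4a11 stood at 70.1 to 114 CPM in the KO libraries, against 3489 to 4357 CPM in the WT libraries. The summed level of 10 corneal endothelial markers was 22423 to 26988 CPM in KO and 26008 to 29644 CPM in WT, and Col8a2, a collagen gene of Descemet's membrane, was at 6489 to 8142 CPM in KO and 6829 to 7981 CPM in WT. The peelings were not pure: 11 keratocyte markers summed to 69913 to 93788 CPM in KO and 66788 to 102854 CPM in WT, and 16 macrophage and monocyte markers to 406 to 653 CPM in KO and 328 to 499 CPM in WT. The 18 epithelial markers separated libraries within KO, with sums of 2298, 704, 82.8, 289 and 4380 CPM in KO 1 to KO 5, against 76.1 to 244 CPM in WT. Of these 18, 13 were called higher and none lower in KO. Values for a KO group reduced to KO 3 and KO 4 are therefore given where they end a call or turn a direction, and with only 2 KO libraries a call can end at a fold change as large as before. The 8 Schwann and nerve markers summed to 280 to 347 CPM in KO and 257 to 291 CPM in WT, with 6 called higher and none lower. Of 14 neutrophil and lymphocyte markers, 11 were under 0.2 CPM in every library, and the neutrophil gene Retnlg was at 0 in all 10.

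Tnfrsf12a, the TWEAK receptor gene, was the member with the largest fold change, and it was higher in KO. Vcam1 and Icam1 were lower in KO. Among the factor genes, Rela and Nfkb2 were slightly higher and Relb and Nfkb1 did not pass. Of the inhibitor genes, Tnfaip3 was slightly lower and Nfkbia did not pass, nor did Ccl2. In all, 3 members were called higher, 3 were called lower and 4 did not pass. Over all tested genes 15.3% were called, 7.59% higher and 7.73% lower in KO. The same 6 members had KO and WT libraries that did not overlap, 3 with KO above WT and 3 with KO below WT, a pattern seen in 12.0% of the tested genes (5.88% with KO above and 6.16% with KO below). Because the members were chosen with this comparison known, nothing is read from these counts.

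**Figure D1:**
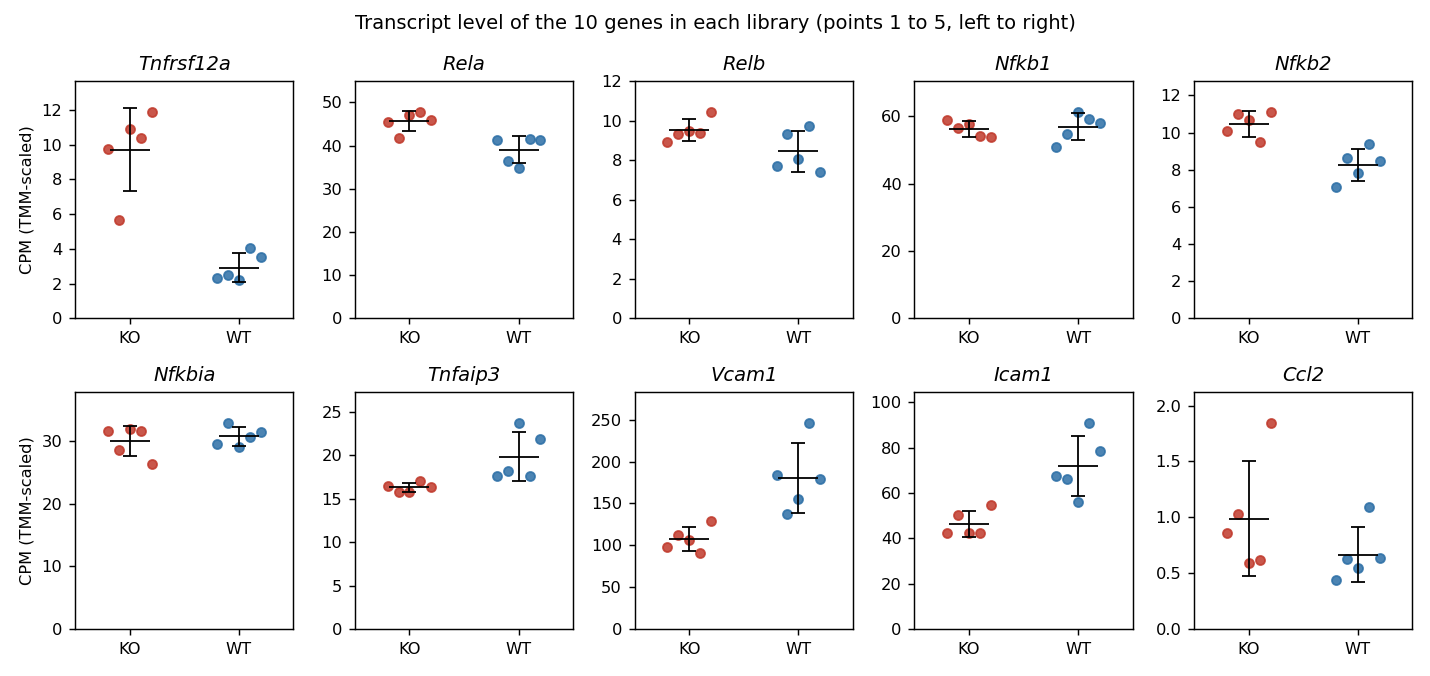
CPM of each of the 10 genes in every library, 1 panel per gene, with KO points left of WT points and bars for the mean and SD (n = 5 each). KO and WT points are fully apart for Tnfrsf12a, Rela, Nfkb2, Tnfaip3, Vcam1 and Icam1, and overlap for Relb, Nfkb1, Nfkbia and Ccl2.

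Tnfrsf12a encodes Fn14, a small membrane receptor whose ligand is the TNF family cytokine TWEAK. The gene (ENSMUSG00000023905.15) is protein-coding and lies at chr17:23675445-23677468 on the minus strand of GRCm38. It was at 9.75, 5.69, 10.9, 10.4 and 11.9 CPM in KO 1 to KO 5, and at 2.32, 2.50, 2.19, 4.04 and 3.54 CPM in WT 1 to WT 5. The lowest KO library, KO 2, was above the highest WT library, WT 4. The means were 9.72 ± 2.39 CPM in KO and 2.92 ± 0.824 CPM in WT (SD, n = 5 each), a log2 fold change of 1.73 (SE 0.22), or 3.32-fold higher in KO. These levels rest on 270 to 502 counts per KO library and 85 to 193 counts per WT library. Leaving out any 1 library kept the log2 fold change between 1.64 and 1.88. KO 3, with the lowest epithelial sum of the KO libraries, had 10.9 CPM, and when the KO group was reduced to KO 3 and KO 4 the log2 fold change was 1.87. In bulk samples such as these, a change in the number of cells of a type and a change in RNA per cell cannot be told apart. That holds for this difference and for every difference below, higher or lower.

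Tnfsf12, the gene of the ligand TWEAK, did not pass: it averaged 50.7 ± 3.02 CPM in KO and 50.6 ± 5.54 CPM in WT (SD, n = 5 each), with a log2 fold change of 0.00 (SE 0.08; edgeR adjusted p = 0.98). The SE sets how small a difference these libraries could show, and the missed threshold is no evidence of equal levels. Hist1h1c, which encodes a linker histone, had 1 of the 2 profiles most like that of Tnfrsf12a over the 10 libraries, out of 12841 genes searched. The root mean square difference between their gene-centred log2 CPM values was 0.32. Hist1h1c averaged 48.8 ± 11.6 CPM in KO and 17.5 ± 1.59 CPM in WT (SD, n = 5 each; log2 fold change 1.48).

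Rela encodes p65, the subunit that carries a transactivation domain in the most common NF-kB dimer. The gene (ENSMUSG00000024927.8, chr19:5637483-5648130, plus strand) was at 45.5, 41.8, 47.1, 47.8 and 45.8 CPM in KO 1 to KO 5, and at 41.3, 36.3, 34.9, 41.6 and 41.3 CPM in WT 1 to WT 5. The lowest KO library and the highest WT library, KO 2 and WT 4, differed by little. The means were 45.6 ± 2.32 CPM in KO and 39.1 ± 3.21 CPM in WT (SD, n = 5 each), a log2 fold change of 0.22 (SE 0.06), or 1.17-fold. The call was lost without KO 1, KO 3, KO 4, KO 5, WT 2 or WT 3, at log2 fold changes of 0.18 to 0.23. It was also lost with no filter on low counts (0.22) and with the replicate number as a block (0.23). The same happened when the KO group was reduced to KO 3 and KO 4 (0.29).

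Nfkb2 encodes p100, the precursor that is cut to p52 in the slower branch. It (ENSMUSG00000025225.15, chr19:46304320-46312385, plus strand) was at 10.1, 11.02, 10.7, 9.47 and 11.1 CPM in KO 1 to KO 5, and at 7.06, 8.61, 7.83, 9.36 and 8.47 CPM in WT 1 to WT 5. KO 4 and WT 4 nearly met, and the others were further apart. The means were 10.5 ± 0.690 CPM in KO and 8.27 ± 0.867 CPM in WT (SD, n = 5 each), a log2 fold change of 0.34 (SE 0.09), or 1.27-fold. The call was lost without WT 3 (0.32) and when the KO group was reduced to KO 3 and KO 4 (0.29). It was also lost with the epithelial marker level as a covariate (0.34) and with the replicate number as a block (0.34). Exons of genes on the opposite strand overlap Nfkb2, the most abundant at 1.49 CPM, and the sources used here do not give the strand setting of the counts.

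Relb, whose product pairs with p52, did not pass. Relb (ENSMUSG00000002983.17, chr7:19606217-19629438, minus strand) was at 8.92, 9.33, 9.49, 9.39 and 10.4 CPM in KO 1 to KO 5 and at 7.69, 9.32, 8.08, 9.72 and 7.41 CPM in WT 1 to WT 5, so WT 2 and WT 4 lay within the KO range. The means were 9.52 ± 0.563 CPM in KO and 8.44 ± 1.02 CPM in WT (SD, n = 5 each; log2 fold change 0.17, SE 0.09).

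Nfkb1, the gene of p105 and of p50, the usual partner of p65, did not pass either. Nfkb1 (ENSMUSG00000028163.17, chr3:135584655-135691547, minus strand) was at 58.9, 56.7, 57.9, 54.2 and 53.7 CPM in KO 1 to KO 5 and at 51.03, 54.9, 61.3, 59.3 and 58.0 CPM in WT 1 to WT 5. All KO libraries lay within the WT range. The means were 56.3 ± 2.27 CPM in KO and 56.9 ± 4.04 CPM in WT (SD, n = 5 each; log2 fold change -0.02, SE 0.06).

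Rel, which encodes c-Rel, is the remaining subunit gene and was described after its values were seen. It averaged 6.43 ± 1.05 CPM in KO and 4.24 ± 0.537 CPM in WT (SD, n = 5 each), a log2 fold change of 0.60 (SE 0.13; edgeR adjusted p = 0.011). The KO libraries, at 5.07 to 7.42 CPM, were above the WT libraries, at 3.54 to 4.87 CPM. When the KO group was reduced to KO 3 and KO 4 the log2 fold change was 0.55 and the call was lost (edgeR adjusted p = 0.055). The epithelial covariate also ended it.

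Per kb of exon, Rela made up 59.1% ± 1.72 of the summed level of the 5 subunit genes in KO and 57.8% ± 3.08 in WT, and Nfkb1 made up 18.6% ± 0.887 in KO and 21.5% ± 1.76 in WT (SD, n = 5 each). These shares depend on the length used: per kb of the longest transcript, Rela was at 43.8% in KO and 41.4% in WT, and Nfkb1 at 35.6% in KO and 39.8% in WT. Rel had the smallest share under both lengths.

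Nfkbia encodes IkB-alpha, the inhibitor that NF-kB itself induces and that returns the dimers to the cytoplasm. Nfkbia (ENSMUSG00000021025.8, chr12:55489410-55492647, minus strand) was at 31.5, 28.6, 32.0, 31.6 and 26.4 CPM in KO 1 to KO 5 and at 29.6, 32.9, 29.1, 30.7 and 31.4 CPM in WT 1 to WT 5. The ranges overlapped and KO 5 was the lowest library. The means were 30.02 ± 2.45 CPM in KO and 30.8 ± 1.54 CPM in WT (SD, n = 5 each; log2 fold change -0.03, SE 0.06), and Nfkbia did not pass.

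Tnfaip3 encodes A20, a ubiquitin-editing enzyme that shuts off the signal upstream of the IkB kinases. Tnfaip3 (ENSMUSG00000019850.11, chr10:19000910-19015657, minus strand) was at 16.5, 15.7, 15.8, 17.04 and 16.4 CPM in KO 1 to KO 5 and at 17.6, 18.2, 23.8, 17.7 and 21.9 CPM in WT 1 to WT 5. The KO libraries were close together, and the WT libraries were spread out above them, with WT 3 and WT 5 highest. The means were 16.3 ± 0.538 CPM in KO and 19.8 ± 2.83 CPM in WT (SD, n = 5 each), a log2 fold change of -0.28 (SE 0.09). The call rested on nearly every library. It was lost without any 1 of the KO libraries, WT 2, WT 3 or WT 5, with log2 fold changes of -0.31 to -0.21. No filter on low counts (-0.28), the epithelial covariate (-0.29), limma-voom (-0.28) and total-count scaling (-0.26) also ended it. So did the replicate number as a block (-0.27) and a KO group reduced to KO 3 and KO 4 (-0.27).

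Promoter sequence bears on these genes because Nfkbia, Tnfaip3, Nfkb2 and Icam1 are textbook NF-kB targets. Windows of 250 bases before a RefSeq transcript start (GRCm38.p6) were found for 6 members, namely Tnfrsf12a, Rela, Nfkb2, Nfkbia, Tnfaip3 and Icam1. Both strands were searched for the kB consensus and for the short core GGANTTTCC, which overlaps it. Of 32851 windows over 27025 genes, 7.25% held the consensus, 1.07% the short core and 7.79% either. In the sequences below, 5′ to 3′ on the gene's strand, capitals mark each match. The Tnfrsf12a window, which had none, is shown beside those that did, without its last 19 bases, which lie in an annotated exon. Nfkb2 and Tnfaip3 are shown only as stretches around matches. A match is a string of letters and not a bound site, and no match says only that these letters are not in the window.
Tnfrsf12a, chr17:23677469-23677699, minus strand: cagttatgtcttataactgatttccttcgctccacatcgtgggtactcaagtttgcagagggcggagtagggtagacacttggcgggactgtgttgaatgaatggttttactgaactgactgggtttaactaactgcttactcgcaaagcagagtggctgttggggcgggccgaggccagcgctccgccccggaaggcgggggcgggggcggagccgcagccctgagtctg
Icam1, chr9:21015690-21015939, plus strand: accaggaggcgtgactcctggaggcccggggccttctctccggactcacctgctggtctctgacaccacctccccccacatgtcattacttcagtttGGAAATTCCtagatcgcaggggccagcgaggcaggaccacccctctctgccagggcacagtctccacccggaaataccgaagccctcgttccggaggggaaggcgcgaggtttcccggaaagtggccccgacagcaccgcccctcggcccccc
Nfkbia, chr12:55492648-55492897, minus strand: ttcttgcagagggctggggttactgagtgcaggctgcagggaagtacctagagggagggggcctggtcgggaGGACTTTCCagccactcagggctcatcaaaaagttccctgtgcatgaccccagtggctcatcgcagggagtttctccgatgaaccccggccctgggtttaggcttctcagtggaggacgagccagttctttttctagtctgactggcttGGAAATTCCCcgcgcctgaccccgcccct
Nfkb2, chr19:46304690-46304716, plus strand: atcgtcacGGGAATTCCCCccctcggg
Nfkb2, chr19:46304717-46304736, plus strand: gggccgaaaGGGGCTTTCCc
Tnfaip3, chr10:19015517-19015544, minus strand: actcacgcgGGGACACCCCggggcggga
Tnfaip3, chr10:19015411-19015437, minus strand: actGGAATTTCCatcGGAAATCCCCct

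The Icam1 window held 1 short core match, 153 bases before the start. The Nfkbia window held a consensus match at 29 bases, which overlaps a short core, and a short core at 178 bases. The Tnfaip3 window shown held consensus matches at 125 and 12 bases and a short core at 24 bases, and its other window held none. The Nfkb2 window from which both stretches come lies wholly within annotated exons and held consensus matches at 39, 38 and 11 bases. The other 2 Nfkb2 windows held a consensus match each, at 236 and at 225 bases, the second overlapping a short core. Annotated exons cover 167 and 234 bases of these windows, in that order. The Rela window held none. Of the members with a match, Icam1 and Tnfaip3 were called lower in KO, Nfkb2 was called higher and Nfkbia did not pass. The calls of Tnfaip3 and Nfkb2 were lost under several alternatives, as given above. A link between the matches and these values was not tested.

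Vcam1 encodes VCAM-1, an immunoglobulin-family surface protein that binds the integrin of Itga4 and Itgb1. Vcam1 (ENSMUSG00000027962.14, chr3:116109949-116129688, minus strand) was at 98.4, 113, 107, 90.2 and 129 CPM in KO 1 to KO 5 and at 183, 137, 155, 246 and 179 CPM in WT 1 to WT 5. The highest KO library, KO 5, was below the lowest WT library, WT 2. The means were 107 ± 14.7 CPM in KO and 180 ± 41.5 CPM in WT (SD, n = 5 each), a log2 fold change of -0.75 (SE 0.14), or 1.68-fold lower in KO. Leaving out any 1 library gave -0.83 to -0.61, the smallest change being without WT 4. The call also held when the KO group was reduced to KO 3 and KO 4, at -0.87.

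Icam1 encodes ICAM-1, the ligand of the integrin of Itgal and Itgb2. Icam1 (ENSMUSG00000037405.8, chr9:21015985-21028817, plus strand) was at 42.3, 50.3, 42.5, 42.5 and 54.8 CPM in KO 1 to KO 5 and at 67.5, 66.2, 56.0, 91.0 and 78.5 CPM in WT 1 to WT 5. The groups did not overlap, though KO 5 lay just under WT 3. The means were 46.5 ± 5.76 CPM in KO and 71.8 ± 13.3 CPM in WT (SD, n = 5 each), a log2 fold change of -0.63 (SE 0.12), or 1.55-fold lower in KO. Leaving out any 1 library gave -0.71 to -0.53.

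A keratocyte gene moved with both adhesion genes. Kera, a stromal proteoglycan gene, was at 5693, 6341, 5650, 5187 and 6217 CPM in KO 1 to KO 5 and at 9707, 5938, 7244, 9864 and 7683 CPM in WT 1 to WT 5, a log2 fold change of -0.48 (edgeR adjusted p = 0.030). Of the 11 keratocyte markers, 1 was called higher and 2 lower, Kera and Ptgds. Set against Kera, a ratio chosen after the values were seen, Vcam1 was at 18.4 ± 1.44 CPM per 1000 Kera CPM in KO and 22.3 ± 2.31 in WT, and Icam1 at 7.98 ± 0.558 in KO and 9.05 ± 1.73 in WT (SD, n = 5 each). On that ratio the KO and WT ranges overlapped for both genes, with Vcam1 at 17.3 to 20.7 in KO and 18.9 to 24.98 in WT. Kera was itself called lower in KO, so dividing by it raises KO relative to WT on average for any gene. The mean log2 CPM of all 11 keratocyte markers was 10.03 to 10.42 in KO and 9.94 to 10.46 in WT. With the mean level of all 11 keratocyte markers as a covariate, also added after the data were seen, the log2 fold change was -0.67 for Vcam1 and -0.58 for Icam1, and both stayed called. The KO and WT ranges of that mean level overlapped, so the covariate could move the fold changes little. The part of stromal carry-over in these differences was not tested. Vascular endothelium also carries VCAM-1 and ICAM-1. Of 13 blood and lymph vessel markers, 9 had enough counts, 2 were called higher and 1 lower, and their sum was 83.4 to 106 CPM in KO and 105 to 157 CPM in WT. Nearly all of that sum was Kdr, a VEGF receptor gene, at 77.7 to 99.9 CPM in KO and 99.6 to 149 CPM in WT. Kdr was the vessel marker called lower (log2 fold change -0.52, SE 0.10; edgeR adjusted p = 0.0058). That is the direction of Vcam1 and Icam1, whereas the 2 vessel markers called higher went the other way. Pecam1 and Cdh5, junction genes of vascular endothelium picked from the list after their values were seen, were at 0.760 to 2.49 and 0.739 to 2.08 CPM in KO, and at 0.447 to 1.22 and 0.433 to 1.40 CPM in WT. Their log2 fold changes were 0.95 and 0.89, opposite to Kdr, and neither passed. The part of vessel cells in the lower Vcam1 and Icam1 was not tested.

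**Figure D2:**
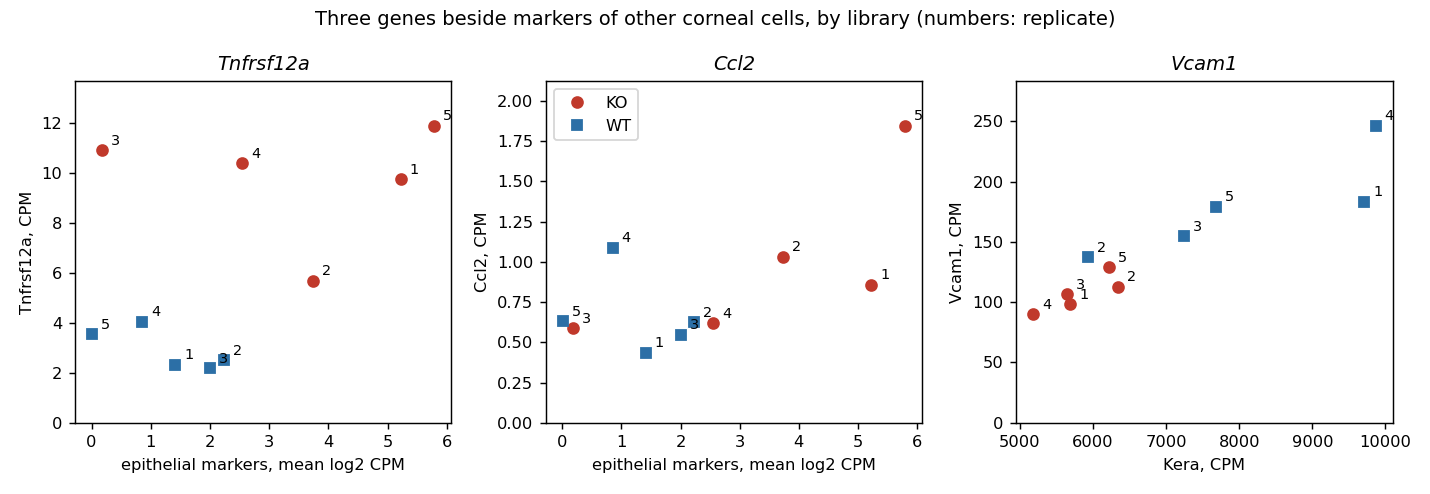
CPM of Tnfrsf12a and of Ccl2 against the mean log2 CPM of the epithelial markers, and of Vcam1 against Kera CPM, with 1 numbered point per library (5 KO, 5 WT). KO 3, at the low end of the epithelial level, has 10.9 CPM of Tnfrsf12a, KO 5, at the high end, has the highest Ccl2 at 1.85 CPM, and in the Vcam1 panel the KO libraries lie lower on both axes than 4 of the WT libraries.

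The integrin genes differed in their behaviour. Itga4, which encodes the alpha chain that binds VCAM-1, was at 7.13, 8.43, 8.97, 7.14 and 7.18 CPM in KO 1 to KO 5 and at 16.0, 12.7, 20.3, 22.4 and 20.4 CPM in WT 1 to WT 5. It fell, with no overlap, by 1.24 on the log2 scale (SE 0.14; edgeR adjusted p = 0.00020). Its partner Itgb1, shared by many integrins, averaged 678 ± 41.0 CPM in KO and 815 ± 37.6 CPM in WT (SD, n = 5 each; log2 fold change -0.27, edgeR adjusted p = 0.014). Its call was lost when the KO group was reduced to KO 3 and KO 4, at a log2 fold change of -0.32 (edgeR adjusted p = 0.070). The ICAM-1 partners did not pass: Itgal averaged 0.518 CPM in KO and 0.484 CPM in WT (edgeR adjusted p = 0.88), and Itgb2 averaged 3.13 CPM in KO and 3.56 CPM in WT (edgeR adjusted p = 0.45). Exons of Cerkl, on the opposite strand, overlap Itga4 and averaged 2.74 CPM.

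The genes with profiles most like Vcam1 over the 10 libraries were Entpd1, a cell-surface nucleotidase, and Itga11, a collagen-binding integrin chain, with root mean square differences of 0.13 and 0.14. For Icam1 they were Vim, the intermediate filament vimentin, and Prrt4, with differences of 0.13 for both.

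Ccl2 encodes MCP-1, which draws monocytes through the receptor Ccr2. Ccl2 (ENSMUSG00000035385.5, chr11:82035571-82037453, plus strand) was at 0.858, 1.03, 0.587, 0.617 and 1.85 CPM in KO 1 to KO 5 and at 0.436, 0.626, 0.546, 1.09 and 0.632 CPM in WT 1 to WT 5. KO 5 stood highest and the groups overlapped. The means were 0.988 ± 0.514 CPM in KO and 0.666 ± 0.250 CPM in WT (SD, n = 5 each; log2 fold change 0.56, SE 0.34), from 23 to 78 counts in KO and 16 to 52 counts in WT, and Ccl2 did not pass. When the KO group was reduced to KO 3 and KO 4 the value was -0.15, with the epithelial covariate it was 0.02, and without KO 5 it was 0.21. Ccr2 fell: it averaged 3.71 ± 0.616 CPM in KO and 6.18 ± 0.574 CPM in WT (SD, n = 5 each), a log2 fold change of -0.74 (SE 0.12; edgeR adjusted p = 0.0020). Ptprc, the pan-leukocyte gene CD45, was at 3.00 to 4.66 CPM in KO and 2.96 to 4.59 CPM in WT and did not pass. Closest in profile to Ccl2 were Junb, an AP-1 subunit gene, at 0.21, and Blnk, a B-cell adaptor gene, at 0.23. The exons of Prdx2, on the opposite strand of Junb, averaged 189 CPM.

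**Figure D3:**
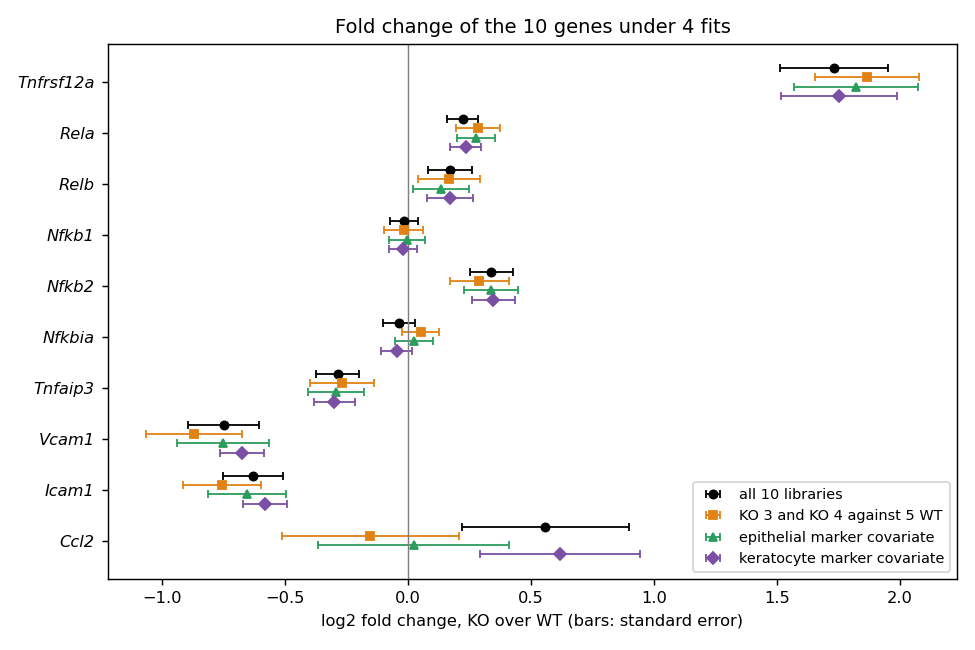
Log2 fold changes (KO over WT) of the 10 genes with SE, with all 10 libraries, with KO 3 and KO 4 against 5 WT libraries, and with the epithelial or the keratocyte marker level as a covariate. Tnfrsf12a lies between 1.73 and 1.87 and Vcam1 and Icam1 between -0.87 and -0.58, while Ccl2 moves to the other side of 0 when the KO group is reduced to KO 3 and KO 4.

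Levels can be compared between genes only per length of exon. In WT, in order of mean CPM per kb, the members ran Vcam1 (20.3), Nfkbia (19.1), Icam1 (16.5), Rela (12.7), Nfkb1 (4.72), Tnfaip3 (2.75), Relb (2.17), Nfkb2 (1.80), Tnfrsf12a (1.51) and Ccl2 (0.585). Neighbours in that order overlapped between libraries except at Rela over Nfkb1, Nfkb1 over Tnfaip3 and Tnfrsf12a over Ccl2. In KO the order was Nfkbia (18.6), Rela (14.8), Vcam1 (12.1), Icam1 (10.7), Tnfrsf12a (5.03), Nfkb1 (4.67), Relb (2.45), Nfkb2 (2.28), Tnfaip3 (2.26) and Ccl2 (0.869). Neighbours there were apart at Nfkbia over Rela, Icam1 over Tnfrsf12a, Nfkb1 over Relb and Tnfaip3 over Ccl2. Tnfrsf12a was the member with the largest step up the order, at place 5 in KO and place 9 in WT. The order depends on the length used. Per kb of the longest transcript, Vcam1 led in both genotypes, at 30.9 in KO and 51.9 in WT, with Nfkbia at 19.0 in KO and 19.5 in WT, and Tnfrsf12a was at place 6 in KO and place 8 in WT.

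**Figure D4:**
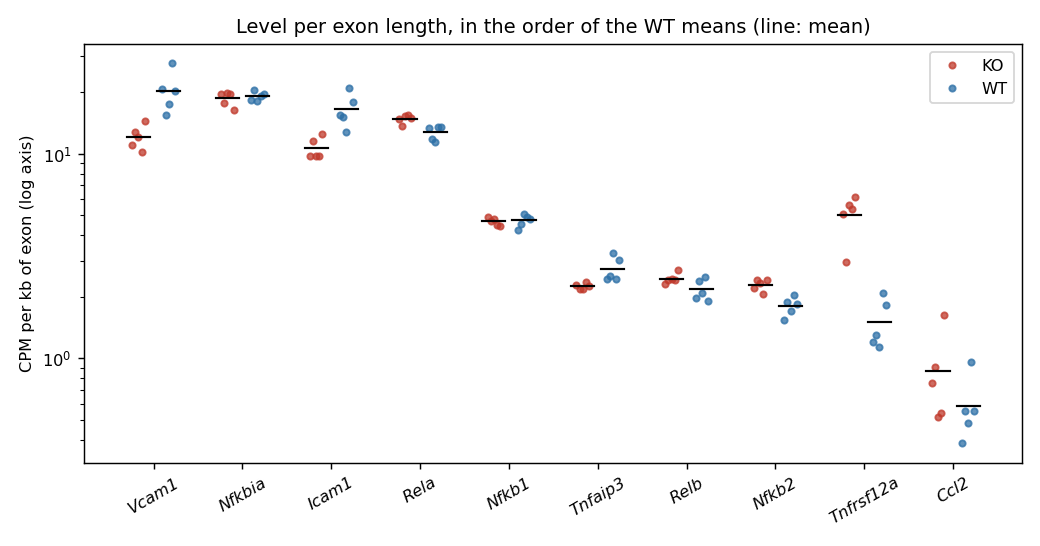
CPM per kb of exon of each gene on a log axis, 1 point per library and a line for the mean, KO left of WT (n = 5 each), in the order of the WT means. On this length the highest mean is that of Nfkbia in KO, at 18.6, and of Vcam1 in WT, at 20.3, whereas per kb of the longest transcript Vcam1 leads in both, and Tnfrsf12a has the largest gap, 5.03 in KO against 1.51 in WT.

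WT 4 was the highest WT library for 7 of the 10 members and KO 5 was the highest KO library for 6. KO 5 had the highest epithelial level in KO, but in WT that was WT 2, which was highest for 1 member. WT 4 had the highest keratocyte level in WT, but in KO that was KO 2, which was highest for 0 members. The part of cell mixture in this was not tested.

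Around the members, 226 other genes were listed in 4 groups: receptors and ligands, signalling core, induced targets, and adhesion and chemokines. Not all of them are parts of NF-kB signalling itself. Of the 225 found, 190 had enough counts. Of those, 25 were called higher, 17 lower and 148 did not pass, or 22.1% called against 15.3% of all tested genes. The lists were chosen with earlier results of these data known, so no list is read as standing apart. Over all tested genes the median log2 fold change was 0.00.

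**Figure D5:**
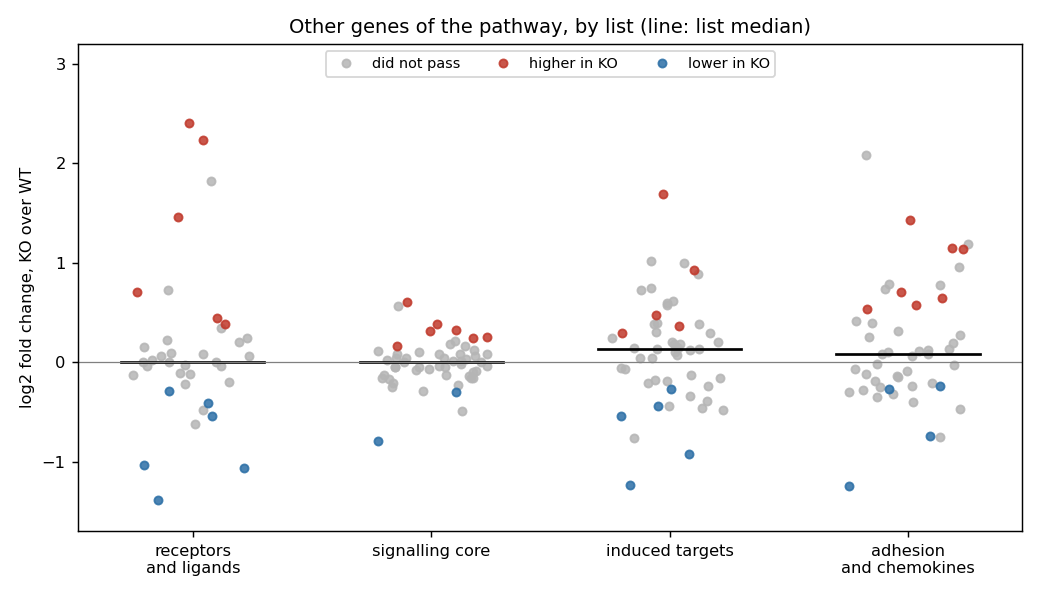
Log2 fold changes (KO over WT) of the tested genes in the 4 lists, with red points called higher, blue points called lower, grey points that did not pass, and a line for the list median. Each list holds genes called in both directions, and the medians lie between 0.00 and 0.14.

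Among receptors and ligands, 6 of 37 tested genes were called higher, 6 lower and 25 did not pass (median 0.01). Tlr2, a receptor for bacterial lipoproteins, rose to 22.8 ± 2.38 CPM in KO, against 16.7 ± 0.491 CPM in WT (SD, n = 5 each; log2 fold change 0.44, edgeR adjusted p = 0.0019), and its partner Tlr1 rose by a log2 fold change of 0.70 (edgeR adjusted p = 0.0028). Cd163, a macrophage scavenger receptor, averaged 0.931 CPM in KO and 0.342 CPM in WT (edgeR adjusted p = 0.0082), and its call was lost when the KO group was reduced to KO 3 and KO 4, at a log2 fold change of 1.02 against 1.46 with all libraries. Cd40, a receptor of the slower branch, fell to 39.4 ± 4.29 CPM in KO, against 57.4 ± 6.86 CPM in WT (SD, n = 5 each; log2 fold change -0.54, edgeR adjusted p = 0.0024). The ligand genes Tnfsf15 and Tnfsf10, which encode TL1A and TRAIL, fell at mean levels under 1 CPM, by 1.38 and 1.06 on the log2 scale. The call of Tnfsf10 was lost when the KO group was reduced to KO 3 and KO 4, where its log2 fold change was -1.21 (edgeR adjusted p = 0.053).

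In the signalling core, 7 of 53 tested genes were called higher, 2 lower and 44 did not pass (median 0.00). Ticam1, the adaptor TRIF of Toll-like receptors, rose by a log2 fold change of 0.33 (edgeR adjusted p = 0.0046). Nlrx1, a mitochondrial NLR protein, and Nfkbib, which encodes IkB-beta, had log2 fold changes of 0.38 and 0.31, and both calls were lost when the KO group was reduced to KO 3 and KO 4, at 0.36 and 0.33. Nfkbib shares exon sequence with Sirt2 on the opposite strand, which was at 69.2 CPM. The 2 genes called lower were Traf3, a brake on the slower branch, at 52.5 ± 5.26 CPM in KO and 64.6 ± 4.66 CPM in WT (SD, n = 5 each; log2 fold change -0.30, edgeR adjusted p = 0.020), and Nlrc5, an activator of MHC class I genes, at -0.79 (edgeR adjusted p = 0.038). Traf3 was lost without WT 3 (-0.27), and Nlrc5 was lost without any of 8 libraries, KO 1 to KO 4 and WT 2 to WT 5, with values of -0.93 to -0.62 over all leave-one-out fits. Both calls also ended when the KO group was reduced to KO 3 and KO 4, at -0.23 for Traf3 and -0.84 for Nlrc5. Nlrc5 averaged only 0.589 CPM in KO and 1.01 CPM in WT. Its call was also lost with total-count scaling, with no filter on low counts, with the replicate block and in limma-voom.

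Among induced targets, 5 of 52 tested genes were called higher, 5 lower and 42 did not pass (median 0.14). Vegfa, the vascular growth factor gene, fell to 30.5 ± 4.56 CPM in KO, against 57.9 ± 5.79 CPM in WT (SD, n = 5 each; log2 fold change -0.92, edgeR adjusted p = 0.00016). Lcn2, which encodes an iron-scavenging lipocalin, fell by 0.54 on the log2 scale and lost its call under the epithelial covariate. Bcl2l1, the gene of the survival protein Bcl-xL, rose by a log2 fold change of 0.29 (edgeR adjusted p = 0.0067). Pim1, a survival kinase gene, and Stx11, a vesicle fusion gene, had log2 fold changes of 0.48 and 0.93, and both calls were lost when the KO group was reduced to KO 3 and KO 4, at 0.31 and 0.55. Others called, named after their values were seen, were Mmp3 and Gadd45b, higher, and Il15 and Csf1, lower.

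Among adhesion and chemokine genes, 7 of 48 tested genes were called higher, 4 lower and 37 did not pass (median 0.08). F11r, the gene of the junctional adhesion molecule JAM-A, rose to 74.8 ± 9.65 CPM in KO, against 47.8 ± 3.18 CPM in WT (SD, n = 5 each; log2 fold change 0.65, edgeR adjusted p = 0.00049). It is also expressed in epithelia, and its call held when the KO group was reduced to KO 3 and KO 4. Cxcl14 and Ccl9, both chemokine genes, had log2 fold changes of 1.13 and 0.71. Both calls were lost when the KO group was reduced to KO 3 and KO 4, at 0.82 for Cxcl14 and 0.70 for Ccl9, and that of Ccl9 also without WT 3, WT 4 or WT 5, with values of 0.60 to 0.84 over all leave-one-out fits. The 4 called lower were Itga4, Ccr2, Itgb1 and Ncam1, of which Ncam1 was named after its values were seen.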

How the data were processed

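Polyadenylated RNA of 5 KO and 5 WT pools was sequenced. The authors deposited raw read counts per gene, and per the submitters' processing notes used Trim Galore 0.6.4, cutadapt 2.4, HISAT2 2.1.0, featureCounts of Subread 1.6.4 and GRCm38.p6; the sources used here do not give the strand setting. Symbols, coordinates and exon lengths came from GENCODE vM21. In R 4.3.3, edgeR 4.0.16 filtered genes by filterByExpr (minimum count 10, minimum total 15), scaled libraries by TMM and ran the quasi-likelihood F test of KO against WT without covariates. SEs were derived from the log2 fold change and F. CPM and CPM per kb were computed from the deposited counts. The p-values measure the spread between pools, and pairs differed by more than counting noise (chi-square divided by its degrees of freedom, 14.7 to 87.7). The common biological coefficient of variation was 16.3%. Counting intervals are not given, since reads without molecular identifiers would give intervals that cover counting error only.

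The members and lists were chosen with earlier results of these data known. Besides Slc4a11 and the members, genes were named by rule: up to 3 called genes with the smallest p per list and direction, the 2 nearest profiles of Tnfrsf12a, Vcam1, Icam1 and Ccl2, and partner genes. Some genes of this rule were analysed but not reported. Alternatives were DESeq2 1.42.0, its size factors, limma-voom (limma 3.58.1), upper quartile and total-count scaling, no filter, a filter of 1 CPM in 5 libraries, an adjusted p under 0.01, a replicate block, the epithelial covariate, a KO group reduced to KO 3 and KO 4, and each library left out. The keratocyte covariate, the longest-transcript length and the ratios to Kera were chosen after seeing the data. RefSeq promoter windows were searched on both strands.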

Additional observations from a re-analysis of the deposited data

Results flagged for a closer look

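Of 88 groups of 5 libraries over 44 named genes, 5 held a library that stood apart from the other 4 of its genotype by more than Dixon's limit of 0.71, and chance alone gives about 1 such group in 20. None was among the 10 members. Tlr1 was at 4.72 CPM in KO 1, against 3.92 to 4.00 CPM in the other KO libraries. Tnfsf12 was at 56.1 CPM in KO 5, against 49.1 to 49.5 CPM in the other KO libraries. Ccr2 was at 4.77 CPM in KO 1, against 3.25 to 3.67 CPM in the other KO libraries, and at 7.20 CPM in WT 1, against 5.83 to 6.08 CPM in the other WT libraries. Tlr2 was at 17.6 CPM in WT 4, against 16.4 to 16.7 CPM in the others. The calls of Tlr1, Tlr2 and Ccr2 held with each library left out in turn.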

How the results depend on the processing

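The genes called, 2716 in all, numbered 1024 at an adjusted p under 0.01, 1316 with the epithelial covariate and 1105 when the KO group was reduced to KO 3 and KO 4 (1815 to 3094 with 1 library left out). Members called, 6 of 10, numbered 3 at an adjusted p under 0.01, and 3 when the KO group was reduced to KO 3 and KO 4 (3 to 6 with 1 left out, 3 without WT 3). Tnfrsf12a, Vcam1 and Icam1 kept their calls under every alternative run. Receptors and ligands called, 12, numbered 7 with the 1 CPM filter, 6 at 0.01, 6 with the epithelial covariate and 4 with KO 3 and KO 4 (8 to 13 with 1 left out). The signalling core, 9, numbered 4 at 0.01, 3 with the epithelial covariate and 1 with KO 3 and KO 4 (6 to 10). Induced targets, 10, numbered 4 at 0.01, 16 with the keratocyte covariate and 16 with DESeq2 (8 to 15). Adhesion and chemokine genes, 11, numbered 3 at 0.01, 3 with the epithelial covariate and 4 with KO 3 and KO 4 (5 to 15, with 7 without KO 1, 5 without WT 3 and 7 without WT 5). Tnfrsf12a was at place 5 in KO and 9 in WT per kb of exon, and at place 6 in KO and 8 in WT per kb of the longest transcript, where Vcam1 led in both genotypes. The cause of these shifts was not tested.

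Directions turned for 6 named genes, none of them called. Nfkb1 was at 0.0093 with total counts (-0.051 to 0.0097 with 1 library left out). Nfkbia was at 0.027 with the epithelial covariate and 0.054 with KO 3 and KO 4 (-0.058 to 0.011). Ccl2 was at -0.15 with KO 3 and KO 4. Tnfsf12 was at -0.016 and -0.031 in these 2 fits (-0.047 to 0.058). Itgal was at -0.15, -0.062 and, in limma-voom, -0.038 (-0.21 to 0.27). Blnk was at -0.019 and -0.071. The epithelial covariate also ended the calls of Ccl9, Cxcl14, Itgb1, Nlrc5, Pim1, Prrt4, Stx11 and Traf3. Prrt4 lost its call without KO 4 (-0.46), and Junb, not called, was called without KO 3 or WT 4 (0.41 to 0.73 over all leave-one-out fits). Junb was also called in DESeq2 (0.61), with total counts (0.64) and with the keratocyte covariate (0.64).

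The replicate numbers do not pair the libraries: deviations of same-numbered KO and WT libraries correlated at -0.42 to 0.09. With the replicate block, 1691 genes, 3 members and 5 adhesion and chemokine genes were called. Among named genes, the block ended the calls of Rela, Nfkb2, Tnfaip3, Ccl9, Itgb1, Nlrc5 and Prrt4. Ccl2, the one member with a mean under 1 CPM, rests on 16 to 78 counts per library.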
